A study of Drosophila melanogaster with 12 samples.

Results

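The genes described here encode parts of the machinery that carries proteins into mitochondria. They were followed in testes of *Drosophila melanogaster* in which spermatocytes arrest before the meiotic divisions. They are 10 genes, taken by name from the 11982 genes that had a probe set with a single gene symbol on the array. Of these, 7 carry the names of the import paralogs, namely *ttm2*, *ttm3*, *ttm50*, *tomboy20*, *tomboy40*, *Tim17a1* and *Tim17a2*, and 3 are general import genes, *Tom20*, *Tom40* and *Tim23*. Each had 1 probe set.

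RNA from whole adult testes was hybridised to Affymetrix arrays, 3 for each of 4 genotypes, 12 in all. In *Med22RNAi* testes, Bam-Gal4, a germ cell driver active in late spermatogonia and spermatocytes, drove a hairpin against the Mediator subunit *Med22* together with UAS-Dicer2, and Mediator is the coactivator that links transcription factors to RNA polymerase II. The *aly* testes (aly2/aly5P) carried 2 mutant alleles of a gene for a subunit of tMAC, a testis form of a chromatin complex of the dREAM type. The *sa* testes (sa1/sa2) carried 2 mutant alleles of a gene for a testis TAF (tTAF), a spermatocyte homolog of a TFIID subunit. The controls, called wild type here, were labelled y,w, whereas the study's methods name an earlier red,e set in that place, so their strain and origin are not settled. All flies were kept at 25 °C and dissected at 1 day old, and seminal vesicles and accessory glands were removed. The *Med22RNAi* arrays were new to the study and the methods take the others from earlier work, so an effect of the knockdown and one of the array series cannot be told apart. No testes with the driver alone were analysed here. The methods call the 3 *Med22RNAi* replicates biological. For the other genotypes neither labels nor methods say so, and p-values that rest on them measure the spread between preparations, which may be technical.

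Proteins made in the cytosol with a mitochondrial presequence are bound by the receptor Tom20 and pass the outer membrane through the Tom40 channel. Tim50 receives them at the inner membrane and hands them to the channel formed by Tim23 and Tim17. Flies carry additional copies of several of these genes. In spermatids the mitochondria fuse into a large body, the nebenkern, and then elongate along the growing flagellum.

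Values are log2 signals, on which a difference of 1 is a 2-fold change, and the lowest value in the table was 2.11. A gene was called higher or lower when its adjusted p was under 0.05 and its change at least 4-fold, with p from limma fitted to all probe sets and adjusted by the Benjamini-Hochberg method. Where a genotype was below 3 on all 3 arrays, its mean was taken as 3 and the change is given as "at least" so many fold. Since testes were analysed whole, fewer cells of a type and less RNA per cell cannot be told apart.

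The median signal of an array lay between 3.07 and 3.11 for *aly*, between 3.66 and 3.80 for wild type, between 3.91 and 4.02 for *sa* and between 4.15 and 4.25 for *Med22RNAi*. Arrays of 1 genotype correlated at 0.983 to 0.997 over probe sets. Equal medians would move every change against wild type by 0.64 for *aly*, by -0.24 for *sa* and by -0.46 for *Med22RNAi*. The median change over all probe sets was 0.00 against wild type in each arrested genotype. Both measures include many dim probe sets, as 45.8 to 49.6% per array lay below 3. Whether bright genes were shifted by the same amount as the medians was not tested. The *sa* probe set read 5.54 to 6.01 in *sa* testes and 10.64 to 10.96 in wild type. The *aly* probe set was no lower in *aly* testes (7.16 to 7.76) than in wild type (6.32 to 6.77), so it does not check that label, and *Med22* had no named probe set. The germ line marker *betaTub85D*, a testis tubulin, was present on all arrays (12.49 to 14.75), while *vas*, another germ line gene, was below 3 on all of them.

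Of the 7 paralogs, 5 fell in each of the arrested genotypes: *ttm2*, *ttm3*, *tomboy20*, *tomboy40* and *Tim17a1*. Against wild type, the share of all probe sets called lower was 9.02% in *Med22RNAi*, 10.3% in *aly* and 7.69% in *sa*. The median change of the 7 paralogs, *ttm50* and the unmeasurable *Tim17a2* included, was -2.52 in *Med22RNAi*, -9.51 in *aly* and -2.20 in *sa*. The *aly* median is the value of *ttm2*, which lay just above 3 on the *aly* arrays, and *ttm3*, *tomboy20* and *Tim17a1* were below 3 on all of them. None of the 3 general genes was called lower, and their median changes were 0.58, 0.19 and 0.32. The other paralogs behaved differently: *ttm50* was not lower in any genotype, and *Tim17a2* was not measurable. Past the adjusted p alone were 7, 8 and 9 of the 10 genes in *Med22RNAi*, *aly* and *sa*, and 45.4%, 45.2% and 42.2% of all probe sets, so that passing it without the 4-fold limit is common here. The 3 comparisons share the wild-type arrays and are therefore not independent.

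**Figure D1:**
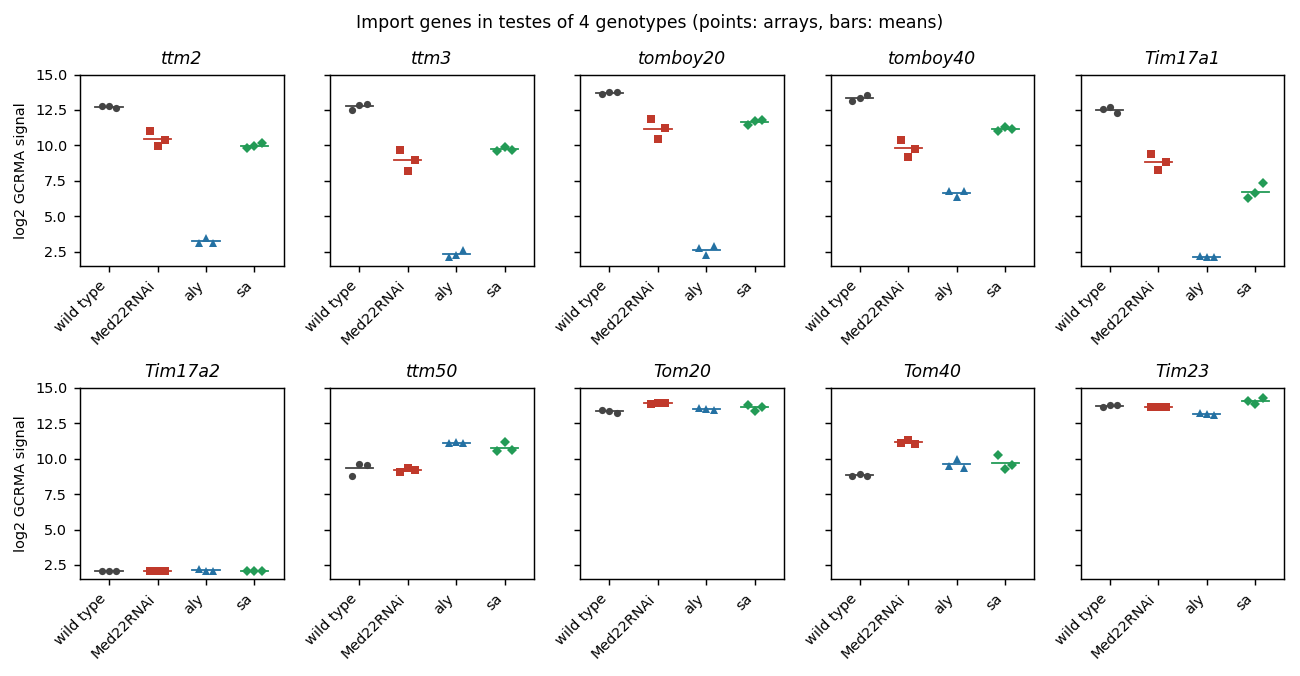
Log2 signal (vertical axis) of each of the 10 import genes on each array. Points are arrays, bars are means of 3 arrays, and colours are genotypes. In *ttm2*, *ttm3*, *tomboy20*, *tomboy40* and *Tim17a1* the 3 wild-type arrays lie above all others and the 3 *aly* arrays below all others, whereas *Tom20* and *Tim23* lie between 13.06 and 14.25 on every array.

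At the outer membrane, *tomboy20*, a copy of the receptor gene *Tom20*, read 13.60, 13.75 and 13.76 in wild type. It read 11.84, 10.47 and 11.25 in *Med22RNAi*, 2.73, 2.28 and 2.89 in *aly*, and 11.45, 11.72 and 11.78 in *sa*. The *aly* arrays were near the lowest value of the table, and neither *Med22RNAi* nor *sa* arrays overlapped with wild type. The change was -2.52 (SE 0.31, adjusted p = 0.000123) in *Med22RNAi*, at least 1667-fold lower in *aly* (adjusted p = 6.78e-09), and -2.05 (adjusted p = 0.00049) in *sa*. The *sa* change was close to the 4-fold limit and came to -1.95 without *sa* replicate 1.

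*Tom20* itself read 13.41, 13.36 and 13.22 in wild type and 13.89, 13.93 and 13.90 in *Med22RNAi*. Its *aly* values were 13.58, 13.54 and 13.44, and its *sa* values were 13.81, 13.39 and 13.68. These arrays were all high, and the *Med22RNAi* ones lay above those of the other genotypes. The change of *Tom20* was 0.58 (SE 0.10, adjusted p = 0.0011) in *Med22RNAi*, 0.19 (adjusted p = 0.19) in *aly* and 0.30 (adjusted p = 0.0423, arrays overlapping) in *sa*, each under the 4-fold limit.

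The channel gene copy *tomboy40* read 13.13, 13.37 and 13.58 in wild type and 10.40, 9.20 and 9.77 in *Med22RNAi*. It read 6.78, 6.34 and 6.76 in *aly* and 10.99, 11.29 and 11.18 in *sa*. The genotypes did not overlap, and of the 5 paralogs that fell this was the one whose *aly* signal stayed farthest above the lowest value. It changed by -3.57 (SE 0.28, adjusted p = 7.42e-06) in *Med22RNAi*, by -6.73 (adjusted p = 6.83e-08) in *aly* and by -2.20 (adjusted p = 0.000161) in *sa*.

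*Tom40*, the general channel gene, rose in *Med22RNAi*. It read 8.80, 8.94 and 8.76 in wild type and 11.08, 11.35 and 11.04 in *Med22RNAi*. It read 9.50, 9.96 and 9.33 in *aly* and 10.23, 9.30 and 9.53 in *sa*, so that every wild-type array was below every other array. The change was 2.32 (SE 0.24, adjusted p = 4.45e-05) in *Med22RNAi*, the only general gene called in any comparison with wild type, where 11.3% of all probe sets were called higher. With array medians set equal it was 1.86, under the limit. In *aly* and *sa* it was 0.76 (adjusted p = 0.0313) and 0.85 (adjusted p = 0.0198), not called, where 14.3% and 9.52% of probe sets were called higher.

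At the inner membrane, *ttm2* and *ttm3* encode forms of the Tim50 receptor. *ttm2* read 12.79, 12.80 and 12.61 in wild type and 10.98, 9.97 and 10.40 in *Med22RNAi*. It read 3.14, 3.47 and 3.08 in *aly* and 9.78, 9.96 and 10.16 in *sa*. *Med22RNAi* and *sa* arrays overlapped with each other and with neither of the other genotypes. *ttm2* changed by -2.28 (SE 0.23, adjusted p = 3.73e-05) in *Med22RNAi*, by -9.51 (adjusted p = 3.51e-09) in *aly* and by -2.76 (adjusted p = 1.19e-05) in *sa*. The *aly* signal lay just above 3 and near the lowest value, so that size is uncertain. Over the alternative settings described below, arrays left out aside, the *aly* change ran from -9.51 to -8.68.

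*ttm3* read 12.50, 12.85 and 12.91 in wild type and 9.66, 8.18 and 8.97 in *Med22RNAi*. It read 2.11, 2.25 and 2.65 in *aly* and 9.61, 9.90 and 9.67 in *sa*. The order of genotypes had wild type on top and *aly* at the bottom, as for *ttm2*, with *Med22RNAi* and *sa* overlapping. It changed by -3.82 (SE 0.33, adjusted p = 1.35e-05) in *Med22RNAi*, at least 865-fold lower in *aly* (adjusted p = 1.35e-08), and -3.03 (adjusted p = 6.09e-05) in *sa*.

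*ttm50*, which shares the ttm name, is the fly gene for Tim50 itself, and it did not fall with *ttm2* and *ttm3*. It read 8.76, 9.65 and 9.54 in wild type, 9.05, 9.31 and 9.18 in *Med22RNAi*, 11.14, 11.14 and 11.09 in *aly*, and 10.57, 11.15 and 10.64 in *sa*. The *aly* and *sa* arrays lay above all wild-type arrays, and the *Med22RNAi* arrays lay among them. The change was -0.14 (SE 0.24, adjusted p = 0.85) in *Med22RNAi*, 1.81 (adjusted p = 0.000146) in *aly* and 1.47 (adjusted p = 7e-04) in *sa*, the last 2 past the adjusted p and under the 4-fold limit. With array medians set equal, the *aly* change was 2.45 and past the limit.

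Of the channel subunits, *Tim17a1* encodes a copy of Tim17. It read 12.53, 12.68 and 12.31 in wild type and 9.40, 8.25 and 8.80 in *Med22RNAi*. It read 2.18, 2.15 and 2.13 in *aly*, close to the lowest value, and 6.28, 6.62 and 7.33 in *sa*. Here the 4 genotypes did not overlap, and *sa* was below *Med22RNAi*. The change was -3.69 (SE 0.32, adjusted p = 1.39e-05) in *Med22RNAi*, at least 728-fold lower in *aly* (adjusted p = 1.17e-08), and -5.76 (adjusted p = 1.22e-06) in *sa*.

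*Tim17a2*, another Tim17 copy, was at the lowest value, 2.11, on 11 arrays and at 2.18 on *aly* replicate 1. No change of it can be read from these arrays in either direction.

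*Tim23*, the general channel subunit, read 13.67, 13.76 and 13.77 in wild type and 13.67, 13.65 and 13.68 in *Med22RNAi*. It read 13.22, 13.18 and 13.06 in *aly* and 14.07, 13.85 and 14.25 in *sa*. The *aly* arrays were low and the *sa* arrays high within a narrow range. The change was -0.065 (adjusted p = 0.728) in *Med22RNAi*, -0.58 (SE 0.089, adjusted p = 0.000438) in *aly* and 0.32 (adjusted p = 0.0159) in *sa*, and the *aly* value was 0.063 with array medians set equal.

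**Figure D2:**
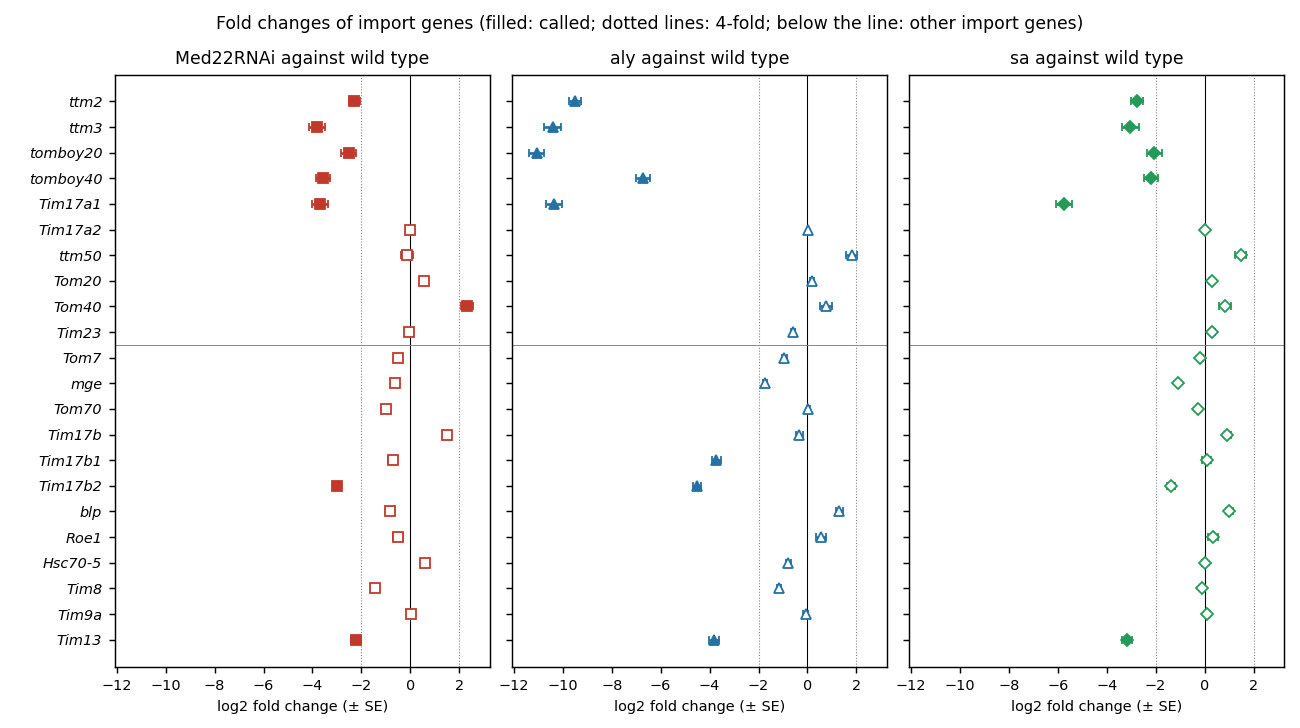
Log2 change against wild type (horizontal axis) of the 10 import genes and, under the line, of 12 other import genes, in 1 panel per arrested genotype, with bars of 1 standard error of the fit. Filled points are called and dotted lines mark 4-fold. For *ttm3*, *tomboy20* and *Tim17a1* in *aly*, all arrays were below 3 and the plotted fit (-10.42, -11.07 and -10.36) is not a measured size. *ttm2*, *ttm3*, *tomboy20*, *tomboy40* and *Tim17a1* lie at -2.05 or below in each genotype, and *Tom40* in *Med22RNAi* lies at 2.32.

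Each copy was also set against a general partner on the same array. This removes a shift shared by all genes of an array, but not one that differs between dim and bright genes. Because probe sets differ in brightness, only the change of the copy minus partner difference from wild type is informative. For *tomboy20* minus *Tom20* it changed by -3.09 in *Med22RNAi* and by -2.35 in *sa*, and it was lower by at least 10.89 in *aly*, where *tomboy20* is taken at 3. For *tomboy40* minus *Tom40* it changed by -5.89 in *Med22RNAi*, by -7.49 in *aly* and by -3.06 in *sa*, the mean of *Tom40* being above wild type in all arrested genotypes. In all of these the arrested arrays lay below every wild-type array.

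For *ttm2* minus *ttm50* the difference changed by -2.15 in *Med22RNAi*, by -11.31 in *aly* and by -4.24 in *sa*, and for *ttm3* minus *ttm50* by -3.68 in *Med22RNAi* and by -4.50 in *sa*. For *Tim17a1* minus *Tim17b*, taken here as the general Tim17 gene, it changed by -5.21 in *Med22RNAi* and by -6.69 in *sa*. In *aly*, with the copy taken at 3, it was lower by at least 11.57 for *ttm3* and at least 9.17 for *Tim17a1*. The *aly* signal of *ttm2*, just above 3, was used as read. Part of these changes is that of the partner. In *Med22RNAi*, *aly* and *sa*, *ttm50* itself changed by -0.14, 1.81 and 1.47, and *Tim17b* by 1.52, -0.34 and 0.93. No arrested array overlapped with wild type in any of these 15 comparisons, and each had p = 0.1 in a two-sided exact permutation test, the smallest that 3 arrays against 3 can give. The copies by themselves already did not overlap with wild type, so the 15 are not separate results. How often other pairs of genes fail to overlap was not computed. *Tim17a2* minus *Tim17b* was left out, as it follows *Tim17b* alone. Because the arrays did not overlap, leaving out 1 array could not change the sign of any of the 15 values. With arrays left out in turn, *ttm2* minus *ttm50* in *Med22RNAi* changed by -2.47 to -1.84.

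**Figure D3:**
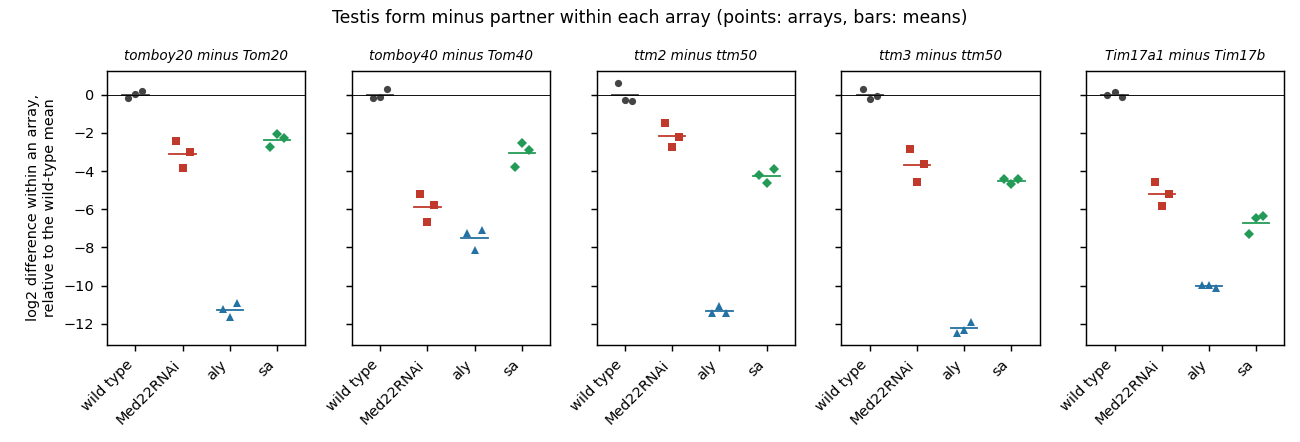
Difference of log2 signals between a testis copy and its partner on the same array, after subtracting the wild-type mean (vertical axis, log2 units), for 5 pairs. Points are arrays and bars are means of 3. All arrested arrays lie below 0 and below the wild-type arrays, and the *aly* points of *tomboy20*, *ttm3* and *Tim17a1* show signals below 3 as deposited, which are not measured sizes.

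The arrested genotypes were then compared with each other. *Med22RNAi* was higher than *aly* in all 5 copies that fell, where 10.2% of all probe sets were called higher and 6.52% lower. The difference was 7.22 for *ttm2* (near the lowest value in *aly*) and 3.16 (adjusted p = 1.83e-05) for *tomboy40*. Signal in *Med22RNAi* was at least 61.4-fold higher for *ttm3*, 291-fold for *tomboy20* and 56.4-fold for *Tim17a1*. Likewise *aly* was lower than *sa* in all 5, where 7.32% of probe sets were called lower and 2.96% higher. The difference between *aly* and *sa* was -6.74 for *ttm2* (near the lowest value in *aly*) and -4.53 (adjusted p = 2.61e-06) for *tomboy40*. Signal in *aly* was at least 106-fold lower for *ttm3*, 401-fold for *tomboy20* and 13.4-fold for *Tim17a1*.

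Between *Med22RNAi* and *sa* the copies were closer. *ttm2* differed by 0.48 (adjusted p = 0.176), *ttm3* by -0.78 (adjusted p = 0.116) and *tomboy20* by -0.46 (adjusted p = 0.369), within the spread of the arrays. *tomboy40* differed by -1.37 (adjusted p = 0.00489), with all *Med22RNAi* arrays below those of *sa*, which did not reach 4-fold. *Tim17a1* was higher in *Med22RNAi* by 2.07 (SE 0.32, adjusted p = 0.00103), the only copy called in this comparison, where 4.57% of probe sets were called higher and 4.27% lower. That call was near its limit: the difference was 1.85 with array medians set equal, 1.78 without *Med22RNAi* replicate 1 and 1.84 without *sa* replicate 1.

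No general gene was called between arrested genotypes. *Tom40* in *Med22RNAi* was 1.56 (adjusted p = 0.000706) above *aly*, or 0.46 (adjusted p = 0.081) with array medians set equal. *Tom40* was 1.47 (adjusted p = 0.00151) above *sa* in *Med22RNAi* and *Tim23* was -0.90 (adjusted p = 5.62e-05) in *aly* relative to *sa*, both under 4-fold. *ttm50* in *Med22RNAi* differed by -1.95 (adjusted p = 0.000137) from *aly* and by -1.61 (adjusted p = 0.000722) from *sa*. By level, the genotypes therefore ran wild type, *Med22RNAi*, *sa*, *aly* for *ttm2* and *Tim17a1*, and wild type, *sa*, *Med22RNAi*, *aly* for *ttm3*, *tomboy20* and *tomboy40*. The neighbours *Med22RNAi* and *sa* in that order were not told apart for *ttm2*, *ttm3* and *tomboy20*.

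The arrays of 1 genotype were not equally low. Of the *Med22RNAi* arrays, replicate 1 was highest and replicate 2 lowest for all 5 copies that fell, with 1.01 to 1.48 between the highest and the lowest array. The same 2 arrays were highest (14.31) and lowest (13.98) for *betaTub85D*. In *sa*, replicate 1 had the lowest signal for all 5 copies and for *betaTub85D* (12.49). The part of these arrays in the changes was not tested. The limma p-values rest on a spread shared by the 4 genotypes. For *tomboy20* the standard deviation was 0.69 in *Med22RNAi* and 0.09 in wild type, and for *ttm3* 0.74 and 0.22. Over the alternative settings described below, arrays left out aside, adjusted p-values for *Med22RNAi* against wild type were larger. They reached 0.0064 for *tomboy20*, 0.00348 for *ttm2*, 0.00248 for *ttm3*, 0.00177 for *tomboy40* and 0.00138 for *Tim17a1*.

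Markers of other cells moved with genotype as well. Signals of a marker list were summed on the linear scale and the log2 of the sum was taken. For 6 measured hub and cyst cell markers it ranged over 8.34 to 9.58 on wild-type arrays and 9.90 to 10.60 on *Med22RNAi* arrays. It ranged over 8.81 to 9.51 on *aly* arrays and 9.38 to 9.56 on *sa* arrays, with *tj* and *upd1* below 3 throughout. For 3 of 6 listed muscle markers it was 8.48 to 10.02, 10.94 to 11.44, 8.82 to 9.51 and 8.87 to 9.95 in the same order. For 6 hemocyte and fat body markers it was 10.21 to 10.99, 11.997 to 12.55, 10.06 to 11.04 and 10.92 to 11.22, with *He* and *Yp1* below 3. In *Med22RNAi*, *vkg* (2.80) and *Col4a1* (2.92), both collagen genes, were called higher and *Lsp2*, a fat body gene, lower (-3.15, adjusted p = 0.00143). *Hml*, another gene of that list, was brightest on the *aly* arrays, where it read 6.10 to 6.80. Wild-type arrays read 3.38 to 3.46 for *Hml*, and its rise of 3.05 in *aly* was called (adjusted p = 3.95e-06). The *Med22RNAi* change of *Hml* was smaller, 1.36, and not called. The summed signal of the list does not show the rise of this dim gene in *aly*. For 6 accessory gland markers the log2 of the sum was 12.88 to 16.24, 12.75 to 14.93, 11.63 to 12.50 and 12.63 to 13.97. Signal was thus present on all arrays although the glands were described as removed, and its source was not tested. Among wild-type arrays all 6 were brightest on replicate 1. *Acp36DE* read 14.13 there and 10.68 and 10.98 on the others. Such sums follow the brightest genes of a list. For hub and cyst cells this was *eya*, at 7.93 to 9.30 on wild-type and 9.46 to 10.32 on *Med22RNAi* arrays. The sums for hub and cyst cells, for muscle and for hemocytes and fat body were higher on every *Med22RNAi* array than on any wild-type array. In the same genotype *Tom40* was called higher, and the part of these cells in that change was not tested.

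Among germ line markers, *bam*, a gene of spermatogonia, was higher than wild type by 4.44 in *Med22RNAi*, by 5.04 in *aly* and by 3.73 in *sa*. The log2 of the summed signal of the 6 germ line markers was 14.72 to 14.85 on wild-type arrays. It was 14.22 to 14.49 for *Med22RNAi*, 14.18 to 14.24 for *aly* and 13.56 to 13.68 for *sa*. This sum follows the bright *betaTub85D*, and other genes of the list went the opposite way: *nht*, a tTAF gene, was called higher in *aly* (2.92) and *sa* (2.22), and *can*, another tTAF gene, in *aly* (2.02).

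The rest of the import machinery was read from 20 further genes, of which 12 had a probe set of their own. None was called higher against wild type, where 11.3%, 14.3% and 9.52% of all probe sets were in *Med22RNAi*, *aly* and *sa*. For 12 genes, none called is not far from those shares. In *Med22RNAi*, *Tim13* and *Tim17b2* were called lower; in *aly*, *Tim13*, *Tim17b1* and *Tim17b2*; and in *sa*, *Tim13* alone, where 9.02%, 10.3% and 7.69% of all probe sets were called lower. The 1 of 12 in *sa* is close to that share. The median change of the 12 was -0.66, -0.87 and -0.058. In *Med22RNAi* against *aly*, *Tim17b1* was called higher (3.01) and *blp* lower (-2.12, adjusted p = 1.75e-06). There 10.2% of all probe sets were called higher and 6.52% lower, so that 1 of 12 each way is close to those shares. In *aly* against *sa*, *Tim17b1* (-3.81) and *Tim17b2* (-3.13, brighter probe set) were called lower, where 7.32% of probe sets were. None was called between *Med22RNAi* and *sa*, where 4.57% of all probe sets were called higher and 4.27% lower, which for 12 genes is not far from those shares.

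*Tim13*, a small chaperone of the space between the membranes, read 13.51, 13.51 and 13.75 in wild type and 11.72, 10.97 and 11.38 in *Med22RNAi*. It read 9.60, 9.67 and 10.04 in *aly* and 10.13, 10.45 and 10.64 in *sa*, so that no arrested array overlapped with wild type. It changed by -2.23 (SE 0.21, adjusted p = 2.38e-05), -3.82 and -3.18 (adjusted p = 3.01e-06).

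*Tim17b2* had 2 probe sets, and the brighter changed by -2.997 (SE 0.16, adjusted p = 8.9e-07) in *Med22RNAi* and -4.50 in *aly*, while the other changed by -1.63 and -3.75, so that they disagreed on the 4-fold call in *Med22RNAi*. In *sa* they changed by -1.37 (adjusted p = 9.11e-05) and -0.92 (adjusted p = 0.0103), under the limit and with no overlap with wild type. *Tim17b1* read 12.15, 12.54 and 12.76 in wild type, 11.75, 11.84 and 11.72 in *Med22RNAi*, 8.75, 8.59 and 8.93 in *aly*, and 12.48, 12.89 and 12.34 in *sa*. The *aly* arrays were the lowest, with a change of -3.73 (adjusted p = 1.95e-07), and the *Med22RNAi* arrays were also below all wild-type arrays, with a change of -0.71 (adjusted p = 0.0102) that was not called. The *sa* arrays overlapped with wild type, and *aly* was -3.81 relative to *sa*. *Tim17b* changed by 1.52 in *Med22RNAi*, by -0.34 in *aly* and by 0.93 in *sa* and was under the 4-fold limit in each.

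The genes whose pattern over the 12 arrays was most like each copy that fell were found by Pearson correlation among 6118 probe sets whose genotype means spanned at least 2. The arrays form 4 genotypes, so this is a description of likeness only. For *ttm2* they were *CG8838* (r = 0.999), *sinah* and *CG10089*, and for *ttm3* *CG42650*, *CG31697* and *CG30350*. For *tomboy20* they were *CG14718*, *CG4955* and *CG46441*, and for *tomboy40* *CG1722* (r = 0.998), *CG12426* and *CG12035*. *Tim17a1* was most like *CG13449*, *CG6333* and *alphaKap4*, with differences from wild type in *sa* of -4.07, -5.48 and -4.55, against -1.53 to -3.44 for the 12 genes named for the other copies. No gene was named for more than 1 of the copies.

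The genes are spread over the genome. In the release 6 gene table *ttm2* and *Tom20* lie on chromosome arm 3L, *ttm3* and *Tim23* on 2L, *tomboy40* on 2R, *tomboy20*, *Tim17a1* and *Tim17a2* on 3R, and *ttm50* and *Tom40* on X. The 5 copies that fell are thus on 4 autosomal arms.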

How the data were processed

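Testis RNA was measured on Affymetrix Drosophila arrays, 3 for each of 4 genotypes. The deposited table holds log2 signals that the authors made with GCRMA, which corrects background from probe sequence, scales arrays to each other and summarises probes. Its version and gene build are not given in the sources used here. GCRMA compresses low signals, and 45.8 to 49.6% of probe sets per array lay below 3. Replicate number limits the precision.

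Of 18952 rows, 183 control rows were removed, leaving 18769 probe sets. A platform table gave 13647 of them a single gene symbol, 402 several and 4720 none. Wider lists were also matched through older symbols in the release 6 RefSeq gene table.

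limma 3.58.1 (R 4.3.3) estimated a mean for each genotype from all 12 arrays in 1 fit, and p-values were adjusted over all probe sets by the Benjamini-Hochberg method. The code was tested on simulated data. Within-array differences were tested with exact permutations. Every member was named, with up to 5 called genes of the wider list per comparison and, for each copy whose genotype means spanned at least 2, the 3 probe sets correlating best with it. Where a gene had several probe sets, the brightest stood for it in counts. Alternatives were median centring, quantile normalization, a filter and a floor at 4, a 2-fold limit, a variance trend, 1 probe set per gene, only the genotypes compared, a replicate block and each array left out. Members and lists were chosen with earlier results of these data known. Figures were drawn with matplotlib 3.10.9.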

Additional observations from a re-analysis of the deposited data

How the results depend on the processing

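Under every alternative run, 5 testis copies were called lower in *Med22RNAi* and in *aly* against wild type, and in *sa* the number was 4 to 5 with single arrays left out (4 without *sa* replicate 1). The other calls that moved were these. With median centring, no general gene was called higher in *Med22RNAi* against wild type (0, from 1). *ttm50* was then called higher in *aly* against wild type and lower in *Med22RNAi* against *aly*, and *Tim17a1* was no longer called higher in *Med22RNAi* against *sa*. With a 2-fold limit, *ttm50* was called higher in *aly* and in *sa* against wild type, and lower in *Med22RNAi* against *aly*. *ttm50* and *tomboy40* were then lower in *Med22RNAi* against *sa*, and the general gene *Tom40* was higher in *Med22RNAi* against each of *aly* and *sa*. With arrays left out in turn, the number of paralogs lower in *Med22RNAi* against *aly* was 0 to 1 (*ttm50*, without *Med22RNAi* replicate 2). The number higher in *Med22RNAi* against *sa* was 0 to 1 (*Tim17a1*, not called without *Med22RNAi* replicate 1 or *sa* replicate 1).

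Some small changes turned sign. With median centring, *Tim23* in *aly* against wild type was 0.063, *Tom20* and *Tim23* in *Med22RNAi* against *aly* were -0.71 and -0.59, and *Tom20* and *Tom40* in *aly* against *sa* were 0.77 and 0.79. *ttm50* in *Med22RNAi* against wild type was -0.41 to 0.030 with arrays left out (0.030 without wild-type replicate 2), and *Tom40* in *aly* against *sa* was -0.28 to 0.18 with arrays left out (0.044 without *aly* replicate 3, 0.18 without *sa* replicate 1). Median centring adds the same amount to every gene of a comparison. That amount was 0.64 for *aly* against wild type, -1.10 for *Med22RNAi* against *aly* and 0.88 for *aly* against *sa*. What set the medians apart was not tested. *Tim17a2* did not pass the filter on dim probe sets. Replicate numbers did not pair the arrays: deviations of same-numbered arrays correlated at -0.36 to 0.35, and 4 of 12 arrays correlated best with their own number. With the replicate block, 5 copies were called lower in each genotype against wild type, and no call on a member changed.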
